A study of Mus musculus with 2 samples.

Results

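The cells described are CD8+ T cells of the mouse spleen that carried transcripts of Ifng, the gene of interferon gamma, after stimulation in culture. They were selected on measured values, in a pool of 16829 deposited cell barcodes. Kept barcodes held 200 genes or more and 10% or less of mitochondrial UMIs (unique molecular identifiers, each of which counts 1 captured transcript). It had to hold at least 2 UMIs of Cd3d, Cd3e, Cd3g and Trac together, at least 1 of Cd8a and Cd8b1, and none of Cd4, Cd79a, Ms4a1 and Ncr1. Cells with 2 or more of the checkpoint genes Tigit, Ctla4 and Lag3 were left out. This gate held 472 cells, of which 167 had 3 or more Ifng UMIs and are called Ifng-producing here, although transcripts and not protein were measured. They made up 35.4% of the gate (31.1 to 39.9, exact 95% Clopper-Pearson interval). The cells set beside them were the 240 cells of the same gate with no Ifng UMI, and a further 65 cells had 1 or 2.

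All mice were wild-type C57BL/6 of 8 weeks. They were sensitized to ovalbumin (OVA) on days 0 and 10 and killed on day 80, and the methods name a further OVA challenge on that day for the treated mice. The conditions were no therapy, the Standard therapy, with soluble OVA on days 20, 22 and 24 followed by OVA in Alum on days 40 and 60, and the DCIR2-Fp therapy, on days 20, 22 and 24 alone, in which OVA is coupled to an antibody against the DCIR2 receptor of type 2 dendritic cells. Spleen cells were stimulated for 3 h with PMA and ionomycin, sorted as CD45+ cells with and without CD11b, mixed, and run as 1 multiplexed pool in which antibody hashtags mark the sample of origin. Sources used here do not pair the 4 hashtags with the 3 conditions, so no condition was compared, and the hashtags serve only to show how values vary within the pool. Since the hashtags belong to no known group they were not used as replicates, and no test was run across them. Intervals cover counting error only, and a gene was called higher or lower where its level differed 2-fold or more.

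Interferon gamma is the signature cytokine of cytotoxic and type 1 helper lymphocytes and of NK cells. Naive CD8+ T cells keep the Ifng locus poorly accessible, whereas memory and effector CD8+ T cells and NK cells transcribe it within hours of stimulation, under T-bet, Eomes, Runx and STAT4 and in response to NFAT and AP-1. PMA and ionomycin bypass the antigen receptor and switch on these last factors. The same cells usually release the chemokines Ccl3, Ccl4 and Ccl5, which attract other leukocytes, and Xcl1, which attracts the cross-presenting dendritic cells that bear Xcr1. Cd160 is a receptor for HVEM and for MHC class I found on memory CD8+ and innate-like lymphocytes.

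Ifng lies at chr10:118441046-118445892 on the plus strand (GRCm38, GENCODE vM21), Xcl1 at chr1:164931644-164935527 and Cd160 at chr3:96798763-96829351, both on the minus strand. Ccl3 (chr11:83647844-83649355) and Ccl4 (chr11:83662584-83664683) are neighbours on opposite strands, with Ccl5 (chr11:83525778-83530518) nearby. The promoters of Ifng, Xcl1, Ccl3 and Ccl9 are shown as examples, although Ccl9 was seen in only 13 of the 167 Ifng-producing cells. Each runs from 250 bases before to 50 after the transcript start, 5′ to 3′ on the strand of its gene, from RefSeq (GRCm38.p6), at chr10:118440796-118441095, chr1:164935473-164935772, chr11:83649329-83649628 and chr11:83578587-83578886. Capitals mark matches on either strand to the AP-1 motif TGANTCA, the NFAT core GGAAA and the T-box core GTGTGA.
Ifng: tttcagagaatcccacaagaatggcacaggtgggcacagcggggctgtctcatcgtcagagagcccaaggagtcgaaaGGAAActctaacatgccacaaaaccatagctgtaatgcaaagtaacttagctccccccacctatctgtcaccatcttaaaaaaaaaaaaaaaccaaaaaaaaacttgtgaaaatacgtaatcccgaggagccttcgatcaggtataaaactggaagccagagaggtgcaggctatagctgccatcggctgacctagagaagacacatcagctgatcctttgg
Xcl1: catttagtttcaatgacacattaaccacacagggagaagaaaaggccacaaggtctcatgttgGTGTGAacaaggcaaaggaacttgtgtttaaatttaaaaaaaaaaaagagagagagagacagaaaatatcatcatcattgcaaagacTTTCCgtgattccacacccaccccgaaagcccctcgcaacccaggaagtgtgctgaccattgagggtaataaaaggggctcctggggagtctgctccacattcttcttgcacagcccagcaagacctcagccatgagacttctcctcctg
Ccl3: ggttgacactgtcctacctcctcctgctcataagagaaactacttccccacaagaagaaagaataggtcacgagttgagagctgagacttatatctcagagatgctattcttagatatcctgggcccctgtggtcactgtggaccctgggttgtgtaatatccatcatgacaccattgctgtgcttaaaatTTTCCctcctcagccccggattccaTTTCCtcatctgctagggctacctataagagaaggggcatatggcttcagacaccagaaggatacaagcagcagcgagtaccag
Ccl9: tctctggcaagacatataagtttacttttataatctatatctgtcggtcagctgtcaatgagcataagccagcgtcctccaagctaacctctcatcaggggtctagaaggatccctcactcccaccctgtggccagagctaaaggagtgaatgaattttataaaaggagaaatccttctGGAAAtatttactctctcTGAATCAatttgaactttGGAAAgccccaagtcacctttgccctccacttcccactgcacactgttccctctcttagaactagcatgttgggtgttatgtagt
Ifng held 1 NFAT core, Xcl1 held 1 NFAT core and 1 T-box core, Ccl3 held 2 NFAT cores, and Ccl9 held 2 NFAT cores and 1 AP-1 match. The promoters of Ccl1, Il2, Tnf and Csf2 were searched too and are not shown. They held 3, 2, 3 and 3 NFAT cores and no AP-1 or T-box match. Of 32851 promoters of this length, 61.3% hold the NFAT core, 14.5% the T-box core and 7.81% the AP-1 motif, so the NFAT core is common in any gene. Entries for Ccl4 and Ccl5 were not matched in the table used.

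The gate asked for a transcript of Cd8a or Cd8b1, so these describe the selection. Cd8b1 was detected in 94.0% of the Ifng-producing cells and Cd8a in 47.9%. Only 5.99% had Cd8a without Cd8b1, the pattern of CD8 alpha homodimers on innate-like cells. Foxp3, the factor of regulatory T cells, had 0 UMIs in the 167 cells, an exact 95% interval up to 2.18%, and the gamma delta constant gene Trdc was seen in 4.19%. At least 1 of Trdc, Tyrobp, Fcer1g and Zbtb16, genes of gamma delta, NK or NKT cells, was detected in 22.2% of the Ifng-producing cells. In the cells without Ifng the share was 7.5%, both before thinning. When such cells were left out of both sets, the counts of called genes stayed within 1.5 times those given here. The median depth was 11970 UMIs in the Ifng-producing cells and 9105 in the cells without Ifng. For this reason shares of cells with a transcript are given after each cell was thinned to 2000 UMIs of genes other than Ifng, which left out 0 and 1 cells of these sets, and levels are summed UMIs of a gene divided by the UMIs of all genes other than Ifng, as counts per 1000000 (CPM).

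Ifng itself, the gene of the rule, ranged from 3 to 659 UMIs per cell in the 167 cells, with a median of 14. The 17 cells with the most held 57.1% of all 8954 Ifng UMIs of these cells, and in the richest cell Ifng was 8.74% of the transcripts. The cells gave 7.96% of the Ifng UMIs of all cells that passed the quality filter. At the edge of the rule, 18 cells had exactly 3 UMIs and 21 had 2. Those with 3 had Xcl1 at 2429 CPM and Ccl3 at 375 CPM, and those with 2 had Xcl1 at 2204 CPM and Ccl3 at 390 CPM, so the values on both sides of the threshold lay close to each other. Among 1093 B cells of the pool (with Cd79a and Ms4a1, without CD3 transcripts and Ncr1, median 10690 UMIs), which should not make Ifng, 1.56% had 3 or more Ifng UMIs.

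Between the Ifng-producing cells and the cells without Ifng, 6499 genes had 50 or more UMIs over both sets. Of these 187 (2.88%) were 2-fold or more higher in the Ifng-producing cells and 96 (1.48%) were 2-fold or more lower. The higher genes included most of the counted chemokine, granule and NK receptor genes, and the lower genes included interferon-induced GTPases. The counts of each group below are set against those background shares.

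**Figure D1:**
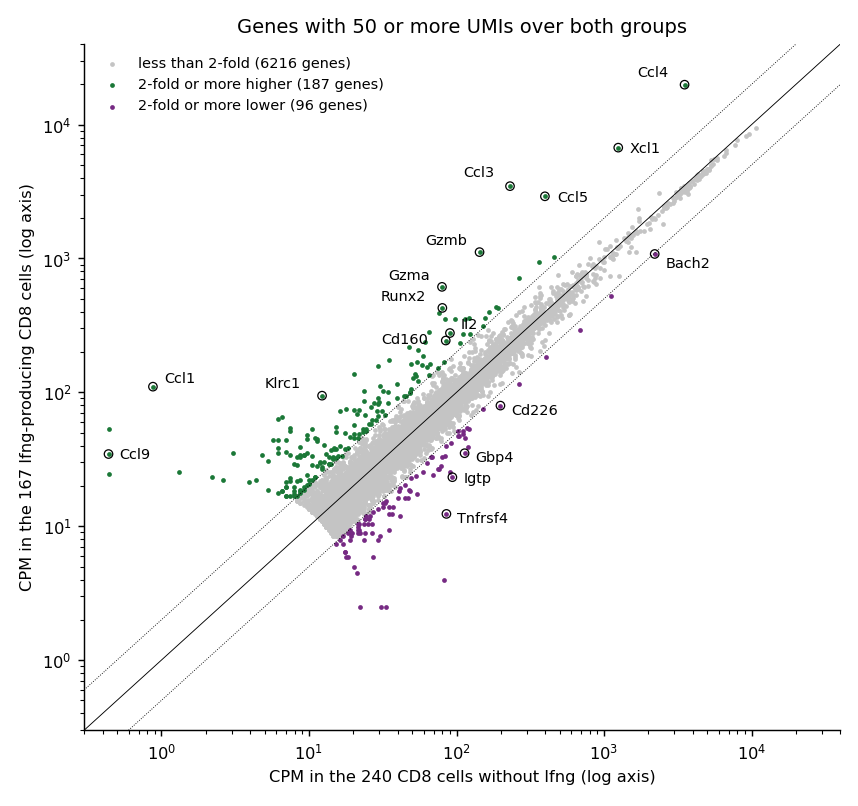
Summed level of each of 6499 genes in the 240 CD8 cells without Ifng (x axis, CPM, log) and in the 167 Ifng-producing CD8 cells (y axis, CPM, log), with 1 point per gene. The solid line marks equal levels and the dotted lines 2-fold differences. Ccl3, Ccl4, Ccl5 and Xcl1 stand far above the diagonal at high levels, and Igtp and Gbp4 below it.

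The chemokine list had the highest median ratio of the lists, 7.33. Of the 7 with enough UMIs, 6 were higher and 1, Cxcl10, was lower, at a ratio of 0.46 that was 0.52 without its richest cell. Ccl3 (MIP-1 alpha) reached 3469 CPM (3388 to 3551, exact Poisson interval) in the Ifng-producing cells and 230.4 CPM in the cells without Ifng, a ratio of 15.1 (13.8 to 16.5). Ccl4 (MIP-1 beta) stood at 19863 and 3512 CPM, 5.66-fold higher, and Ccl5 (RANTES), which resting memory CD8+ cells store as mRNA, at 2913 and 397.4 CPM, 7.33-fold higher. Xcl1 (lymphotactin) stood at 6726 and 1248 CPM, 5.39-fold higher (5.18 to 5.61). Xcl1 was seen in 81.4% (74.7 to 87.0) of the thinned Ifng-producing cells, 31.8% (25.9 to 38.1) of the cells without Ifng and 8.06% of the B cells. The B cell share, with a level of 135.1 CPM, is the background against which these shares are read. Before thinning, 80.2% of the Ifng-producing cells and 10.4% of the others had UMIs of Ccl3, Ccl4, Ccl5 and Xcl1 all together.

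The highest ratios of all belonged to rare chemokine transcripts. Ccl1, a ligand of Ccr8, had 223 UMIs in 11 Ifng-producing cells and 2 UMIs in the others, a ratio of 126 with an interval from 34.4 to 1046. A single cell held 50.2% of these UMIs. Ccl9, a ligand of Ccr1, had 70 UMIs in 13 cells against 1. Several others of the 15 highest ratios came from few cells as well. Ralyl, Mctp1, Hip1, Slc7a11 and Penk were seen in 5 to 16 Ifng-producing cells, and 1 cell held 92.0% of the Ralyl UMIs and 78.4% of those of Mctp1. Arsb, a lysosomal sulfatase, was broader, at 63.3 CPM in 35 cells against 6.13 CPM in 9 cells, and Lrrk1, a kinase, was seen in 43 cells against 6.

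Granule genes followed, with 9 of 12 counted genes higher and none lower. Gzmb, the granzyme that starts apoptosis in target cells, stood at 1116 and 143.3 CPM, 7.79-fold higher (6.93 to 8.77), and Gzma at 613.6 and 79.7 CPM, 7.70-fold higher. Prf1, which forms the pore for granzymes, was 3.66-fold higher at 73.7 CPM, and Fasl, the ligand of the death receptor Fas, stood at 46.0 against 10.9 CPM. Gzmb was detected in 35.3% of the thinned Ifng-producing cells, 11.7% of those without Ifng and 5.22% of B cells. Serpinb9 and Serpinb6b, which protect the killer cell from its own proteases, were 3.12-fold and 3.59-fold higher. The proteoglycan core Srgn (0.95) and the granule membrane protein Lamp1 (1.04), which all T cells use, did not reach 2-fold. Gzmb and Prf1 were found in the same cell in 22.8% of the Ifng-producing cells and 5.42% of the others, before thinning.

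NK receptors and their adapters were higher for 10 of 11 counted genes. Klrc1, the inhibitory NKG2A chain, stood at 94.4 and 12.3 CPM, 7.70-fold higher, Klrk1 (the activating receptor NKG2D) at 136.0 and 20.2 CPM, 6.75-fold higher, and Klrd1, the partner of NKG2A, at 53.4 and 24.5 CPM, 2.18-fold higher. A single cell held 23.1% of the Klrd1 UMIs, without it the ratio was 1.67, under 2-fold, and in hashtag 9 it was 0.85. Other genes of the list ran the other way in a hashtag as well. In hashtag 10 Klra4 had 0 UMIs against 16 and Klra7 a ratio of 0.69, and in hashtag 12 Klre1 had 1 UMI against 5. Klrc1 was seen in 14.4% of the thinned Ifng-producing cells, 0.837% of the cells without Ifng and 0.458% of B cells. Tyrobp and Fcer1g, adapters abundant in NK and myeloid cells, passed 2-fold too, but their thinned shares of 5.99% and 1.80% were at or below the 6.59% and 4.95% of B cells and are read as background. Klrc and Klra genes have near-identical copies, and reads may be split between them.

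Memory and effector genes were higher for 9 of 14 and lower for 1. Cd44 stood at 710.0 and 265.1 CPM, 2.68-fold higher. The chemokine receptors Ccr2, Cxcr3 and Cxcr6 were 7.08-fold, 2.85-fold and 2.07-fold higher, with Cxcr6 at 1.90 without its richest cell. Ly6c2 was 2.95-fold higher, while Ly6a (Sca-1), which interferons induce, was lower at 52.9 and 120.9 CPM. S100a4 was 9.93-fold higher, but 46.2% of its UMIs came from 1 cell, and without that cell the ratio was 5.34. Of 12 naive and central memory genes none was higher and 2 were lower. These were Ccr7, the lymph node homing receptor, at 45.5 and 113.5 CPM (ratio 0.40), and Bach2, a repressor that keeps T cells quiescent, at 1080 and 2204 CPM (ratio 0.49). Lef1 at a ratio of 0.68 and Tcf7 at a ratio of 0.59 stayed within 2-fold.

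**Figure D2:**
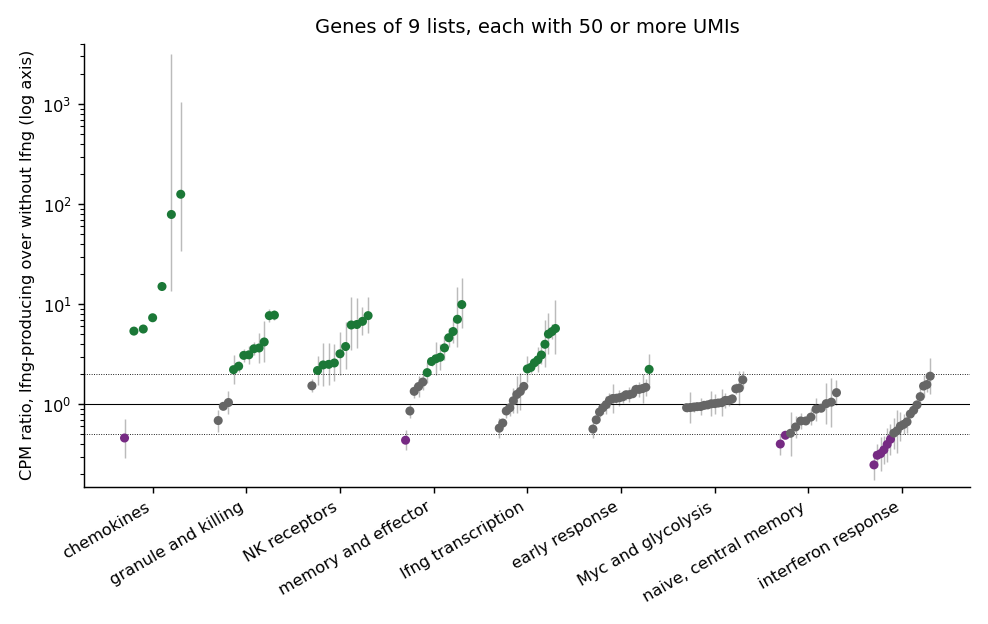
Ratio of CPM in Ifng-producing cells over CD8 cells without Ifng (y axis, log) for the counted genes of 9 gene lists (x axis), each gene a point with its exact 95% counting interval. Green points are 2-fold or more higher, purple 2-fold or more lower, and grey in between. The chemokine, granule and NK receptor genes lie mostly above the upper dotted line, the early response and Myc lists around 1, and 6 interferon response genes below the lower line.

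Of the 17 counted genes that act on Ifng transcription, 9 were higher and none lower. Both chains of the IL-18 receptor were among them, Il18r1 at 35.1 and 6.13 CPM (5.72-fold) and Il18rap at 52.9 and 10.5 CPM (5.03-fold). Runx2 was 5.33-fold higher at 427.2 CPM and was seen in 52.7% of thinned Ifng-producing cells against 11.3%. Stat4, which carries the IL-12 signal, was 2.34-fold higher. Of the IL-12 receptor chains, Il12rb2 stayed within 2-fold at 49.4 and 45.6 CPM (ratio 1.09, 0.82 to 1.44). Il12rb1 had 0 and 5 UMIs, too few to be counted. The transcription factors Eomes, Zeb2, Bhlhe40, Id2 and Prdm1 were 2.26-fold to 3.98-fold higher. Eomes had 2 UMIs against 10 in hashtag 12, a ratio of 0.43 there. Tbx21, the gene of T-bet, stayed within 2-fold at 54.9 and 95.1 CPM (ratio 0.58, 0.46 to 0.73), and Runx3 had a ratio of 0.92.

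Most counted genes of the early response list and of the NFAT and NF-kappaB feedback list stayed within 2-fold. In the early response list 1 of 18 counted genes, Ier3, was 2-fold higher. Egr2 had a ratio of 1.48, Nr4a1 (Nur77) 1.19, Fos 0.99 and Jun 0.57. In the NFAT and NF-kappaB feedback list 2 of 18 were higher, Spry2 and Nfkbiz (1.94 without its richest cell), and Nfkbia had a ratio of 1.23 and Tnfaip3 of 1.29. None of 17 Myc target, nutrient uptake and glycolysis genes passed 2-fold, and their median ratio was 1.02, against 0.98 over all counted genes. The 7 heat shock genes and 3 cell cycle genes counted gave none. Of the 9 cytokine mRNA decay genes only Zc3h12d passed, at a ratio of 0.33.

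Other cytokines were sparser. Il2 stood at 277.4 and 90.2 CPM, 3.07-fold higher (2.62 to 3.62), and Tnf at 63.3 and 38.6 CPM, a ratio of 1.64 that did not reach 2-fold. Ltb, which shapes lymphoid tissue, was lower at 28.2 and 78.0 CPM. Tnf and Il2 were found in the same cell as Ifng in 20.4% of the Ifng-producing cells, and the pair was found in 4.17% of the cells without Ifng, before thinning. Il10 was seen in 10 of 167 cells (5.99%). Of 9 counted TNF family genes, Tnfsf14 (LIGHT) and Tnfrsf9 (4-1BB) were higher at ratios of 2.92 and 2.23, and Tnfrsf4 (OX40) was lower at 0.14. A single cell without Ifng held 90 of 195 Tnfrsf4 UMIs, and without it the ratio was 0.27.

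Cd160 was detected in 26.9% (20.4 to 34.3) of the thinned Ifng-producing cells, 15.1% of those without Ifng and 0.0916% of B cells. Its level was 243.8 CPM (2.88-fold higher than the 84.6 CPM without Ifng, 2.44 to 3.42). Among 14 activation and coreceptor genes, Havcr2 (Tim-3) was also higher, 4.51-fold at 73.2 CPM, and Cd226 and Cd96, which bind the ligands shared with Tigit, were lower at a ratio of 0.40 each. Il2ra, the IL-2 receptor chain that stimulation induces, stood at 742.7 and 693.5 CPM, a ratio of 1.07. Xcl1 and Cd160 were present together in 55.7% of the Ifng-producing cells and 20.4% of the others, before thinning.

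Of 18 counted interferon receptor and response genes 6 were lower in the Ifng-producing cells and none was higher, and the median ratio of the list was 0.62. The immunity-related GTPase Igtp stood at 23.2 CPM (17.1 to 30.9) and 93.8 CPM (81.6 to 107), a ratio of 0.25, and Irgm1 at 17.3 and 53.9 CPM, a ratio of 0.32. The guanylate-binding proteins Gbp4 and Gbp2 had ratios of 0.31 and 0.35, and the peptide transporter Tap1 0.45. The other 12 were within 2-fold, among them Irf1 (0.63), Psmb8 (0.67) and B2m (0.80). The list also holds Socs1, Socs3, Cish and Ifngr1, which are given below for the cells with a Cd44 UMI. Igtp was detected in 4.79% of thinned Ifng-producing cells and 18.0% of thinned cells without Ifng, and Gbp4 in 5.99% and 18.4%. Irgm2, Gbp6 and Tapbpl, of the same families or pathway but outside the list, were among the 15 genes with the lowest ratios, at 0.22, 0.21 and 0.28. Other low genes of that set were 1700062C10Rik (0.048), Plxdc2, Plcl1, Prickle1, Cd200, Trib2, Gm47782 and Ube2e2, with ratios from 0.074 to 0.29. Hdac9 (0.28) owed its place to 1 cell that held 158 of 206 UMIs, and without that cell its ratio was 1.20.

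Because Cd44 differed between the sets, the comparison was repeated among cells with a Cd44 UMI, 150 with and 115 without Ifng, a step chosen after the data had been seen. In these cells 8 of 18 interferon response genes were lower, Igtp at a ratio of 0.23, Irgm1 at 0.28, Gbp2 at 0.29 and Gbp4 at 0.34. The list was not low throughout. Socs3 (1.99), Cish (1.59), Socs1 (1.39) and Ifngr1 (1.14) had ratios above 1 that stayed within 2-fold. All 6 counted chemokines of that comparison and 8 of 12 granule genes were higher. So were 7 of 11 NK receptor genes and 7 of 17 genes of Ifng transcription. Cxcl10, the chemokine lower in the full sets, had too few UMIs to be counted here (16 with and 28 without Ifng, ratio 0.36). Of all 5784 genes counted in the cells with Cd44, 143 were higher and 91 were lower. Eomes dropped under 2-fold, at 1.48, while Il18r1 (5.27) and Stat4 (2.36) stayed above it.

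Within the gate the levels were graded with Ifng. From 0 through 1 to 2, 3 to 9, 10 to 29 and 30 or more Ifng UMIs, Ccl3 stood at 230.4, 454.7, 1305, 1780 and 7201 CPM. Ccl4 ran from 3512 over 5371, 11115 and 19034 to 30740 CPM, and Xcl1 from 1248 over 1822, 4053 and 6468 to 10054 CPM. Ccl5 was already at 1779 CPM in cells with 1 or 2 UMIs and ended at 3560 CPM. Il2 stayed between 64.1 and 150.0 CPM up to 29 Ifng UMIs and stood at 617.8 CPM above. Cd160 reached 287.8 CPM at 10 to 29 UMIs and 290.4 CPM above, intervals that overlap. Igtp stood at 93.8, 74.7, 30.2, 20.3 and 17.1 CPM, and Gbp4 at 113.5, 119.8, 43.6, 22.3 and 34.2 CPM, so both were low from 3 UMIs on. Across the 167 cells, the Spearman correlation with Ifng, each divided by the UMIs of the cell's other genes, was 0.68 for Ccl3, 0.64 for Ccl4, 0.33 for Xcl1, 0.17 for Tnf and 0.06 for Cd160. These cells share 1 library, and the coefficients are a description.

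**Figure D3:**
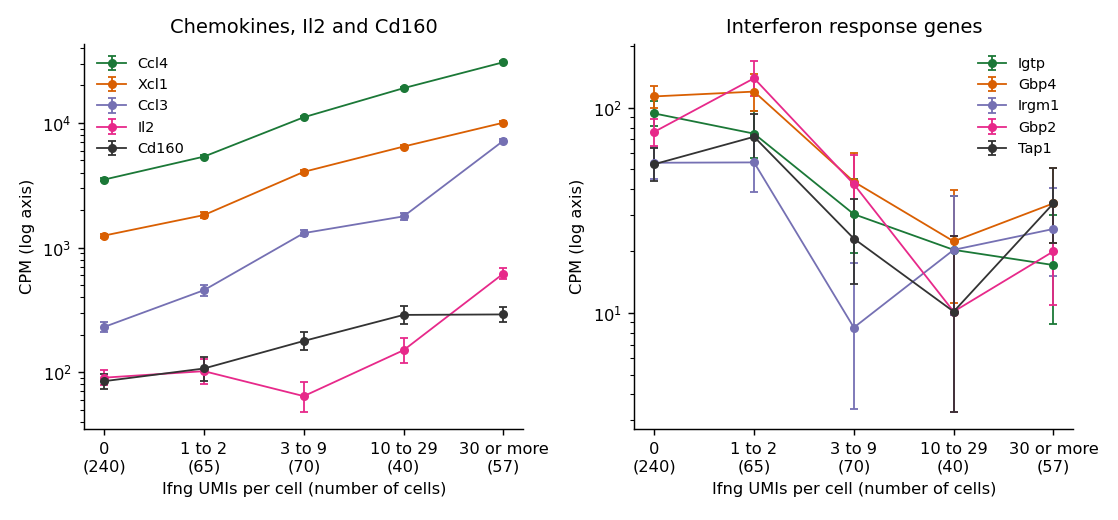
Summed level (y axis, CPM, log) of 5 genes in each panel over 5 ranges of Ifng UMIs per cell (x axis, with the number of cells), with exact 95% counting intervals as bars. Ccl3, Ccl4 and Xcl1 are higher in each further range, and Il2 is highest at 30 or more. The 5 interferon response genes are lower in all 3 ranges from 3 UMIs on than in the cells without Ifng.

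The 4 hashtags gave the same gate in 4 sets of cells. The share of the gate with 3 or more Ifng UMIs was 43.1% (22 of 51 cells) for hashtag 9, 42.7% (44 of 103) for hashtag 10, 35.1% (39 of 111) for hashtag 11 and 25.3% (24 of 95) for hashtag 12, with intervals that overlap. Xcl1 in the Ifng-producing cells was 8159, 5164, 8201 and 5595 CPM, and in the cells without Ifng 71.0, 1301, 2227 and 1134 CPM, so the Ifng-producing cells were higher in each hashtag. Ccl3 was 2906, 2503, 4246 and 2207 CPM against 38.2, 129.8, 404.7 and 179.6 CPM. Gzma was 1091, 751.2, 473.0 and 148.6 CPM against 92.8, 114.5, 12 and 61.6 CPM. Cd160 was 380.7, 292.3, 301.3 and 144.9 CPM against 60.0, 78.9, 78.9 and 109.5 CPM, closest in hashtag 12. Igtp was 21.1, 24.7, 23.7 and 40.9 CPM against 109.2, 76.4, 75.4 and 102.6 CPM. Irgm1 ran the other way in hashtag 9, where 10 and 5 UMIs gave a ratio of 1.55, and Gbp2 and Gbp6 did so in hashtag 12, at ratios of 1.09 and 3.04. Of the named and list genes past 2-fold, 47 of 61 higher and 15 of 27 lower genes had the same direction in all 4 hashtags. Here 0 UMIs in both sets counted as no direction. These genes were chosen by the pooled ratio of the same cells, which favours a shared direction. The share over all counted genes was not computed, so the counts are a description.

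**Figure D4:**
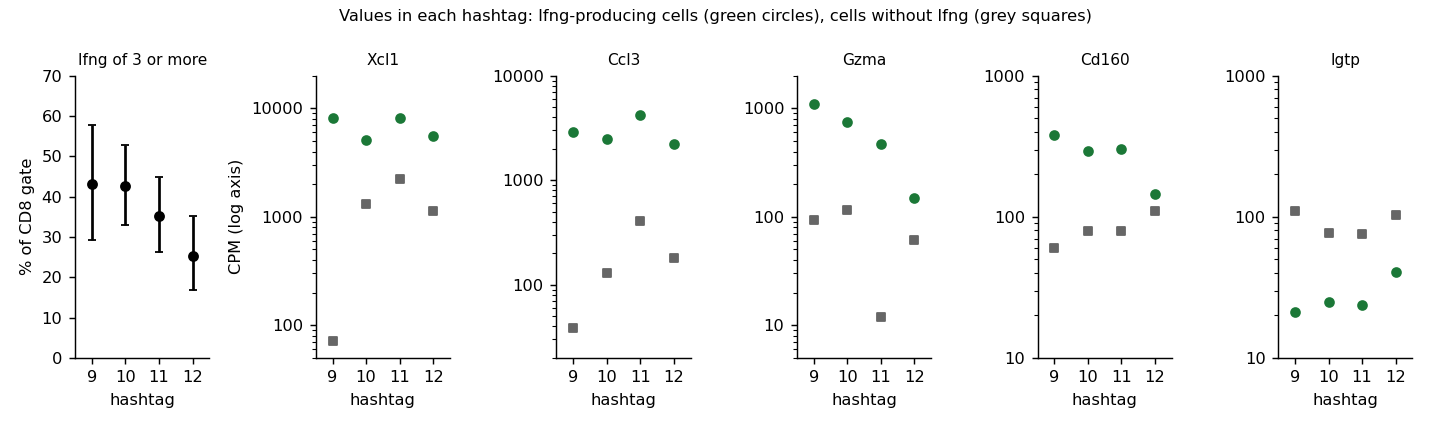
The first panel gives the share of the CD8 gate with 3 or more Ifng UMIs in each of 4 hashtags (y axis, percent, with exact 95% intervals), and the others give the CPM (y axis, log) of 5 genes in each hashtag, green circles for Ifng-producing cells and grey squares for cells without Ifng. The circles lie above the squares in each hashtag for Xcl1, Ccl3, Gzma and Cd160, and below them for Igtp.

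The CD8+ cells with Ifng that were kept out of the gate for 2 or more checkpoint genes, 54 cells with a median of 11692 UMIs, were the CD8+ cells nearest in kind. Xcl1 stood at 6726 CPM in the Ifng-producing cells and 5319 CPM in these, and Ccl4 at 19863 and 24191 CPM. Of 5626 genes counted, 140 (2.49%) were 2-fold or more higher in the Ifng-producing cells and 260 (4.62%) lower. No gene of the chemokine list was higher and 2 of 7 were lower. Of 13 granule genes none was higher and 3 were lower, and none of 12 NK receptor genes passed 2-fold. Gzmb and Prf1 were found in the same cell in 63.0% of the checkpoint cells and 22.8% of the Ifng-producing cells, before thinning. The granule and NK receptor transcripts are therefore not particular to the Ifng-producing cells of the gate. Il10, the cytokine that restrains inflammation, stood at 12.9 CPM against 196.9 CPM (ratio 0.065), with shares of 2.40% and 24.1% of thinned cells; B cells, which can make Il10, had 9.43%. Ikzf2 (Helios) had a ratio of 0.10, and those of Cd200, Tnfrsf4 and Il21 were 0.054, 0.059 and 0.011. Cxcl9 was low as well (0.014), but 138 of its 153 UMIs in the checkpoint cells came from 1 cell. Of 6 B cell genes counted, 4 were lower and 1 was higher in the Ifng-producing cells, and what part B cell transcripts had in these differences was not tested. Grap2, an adapter of the T cell receptor, was 5.27-fold higher and was seen in 70 cells.

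NK cells with 3 or more Ifng UMIs, defined by Ncr1 without CD3 transcripts, numbered 1595 with a median of 5675 UMIs. Of 9452 genes, 462 (4.89%) were 2-fold or more higher in the Ifng-producing CD8+ cells and 1961 (20.7%) lower. Themis, a T cell development gene, stood at 2339 against 9.36 CPM, Cd6 at 199.8 against 4.42 CPM and Bcl11b at 70.7 against 1.77 CPM. Cd160 was likewise higher in the CD8+ cells, at 243.8 against 7.33 CPM, and Il2 at 277.4 against 11.6 CPM, as was Tnfsf11 (RANKL) at 250.7 against 2.39 CPM. NK cells had more Ccl3 (9019 CPM), Ccl5 (9783 CPM), Gzmb (6561 CPM) and Prf1 (1081 CPM), and 18 of 20 NK receptor genes were lower in the CD8+ cells. The rules for Ncr1 and for the CD3 genes and Trac were opposite in the NK and CD8+ cells. Differences in T cell genes and NK receptor genes therefore partly describe the selection. The 8 lowest genes by rank had 0 UMIs in the CD8+ cells, where 20.7% of all genes were lower, and are not named.

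**Figure D5:**
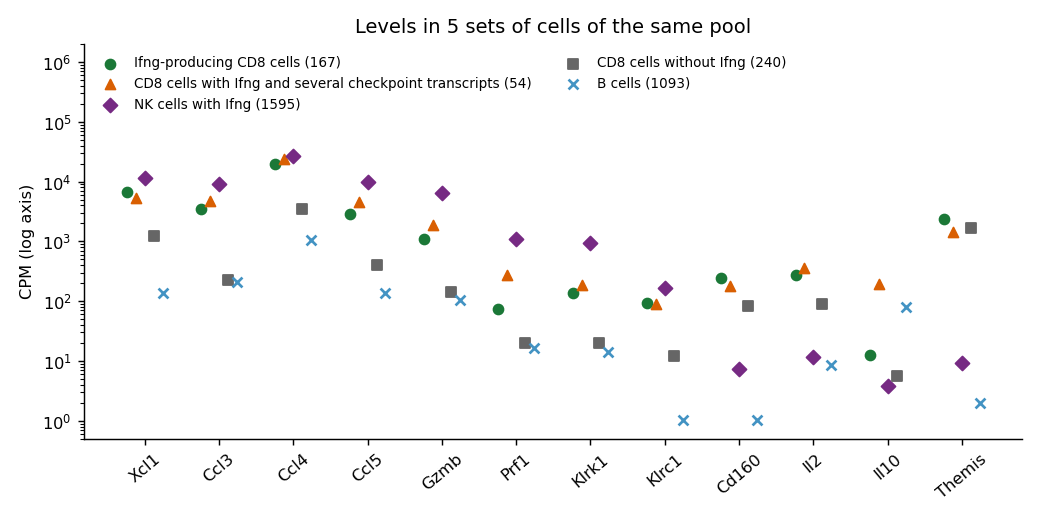
Summed level (y axis, CPM, log) of 12 genes (x axis) in 5 sets of cells of the pool: 167 Ifng-producing CD8 cells, 54 CD8 cells with Ifng and several checkpoint transcripts, 1595 NK cells with Ifng, 240 CD8 cells without Ifng and 1093 B cells. The Ifng-producing CD8 cells lie near the checkpoint cells for Xcl1 and Ccl4, below them for Il10, and above NK cells for Cd160, Il2 and Themis.

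Transcripts of other cell types were low in both sets. The 14 myeloid genes summed to 175.5 CPM in the Ifng-producing cells and 56.5 CPM in the cells without Ifng, with 6 of 14 at 0 in each, among them Adgre1 and Flt3. S100a8 and S100a9 passed 2-fold, and without the richest cell their ratios were 0.77 and 0.99. The 14 B and plasma cell genes summed to 575.1 and 409.6 CPM, against 15385 CPM in B cells, and Cd79b was at 0 in both sets, as Cd79a and Ms4a1 were by the rule. Ebf1 passed 2-fold at 37.6 and 14.9 CPM, with a ratio of 1.76 without its richest cell. Scrublet marked 6.59% of the Ifng-producing cells and 2.92% of the others as doublets, and 22.2% and 22.9% carried more than 1 hashtag. Xcl1, Ccl3 and Igtp kept their direction without the cells marked in either way.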

How the data were processed

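The pool of spleen cells from 3 conditions was sequenced as 10x 3′ libraries, for transcripts and for hashtags. The authors made the deposited UMI counts per gene and barcode with Cell Ranger (version 7.2.0 in the submitters' processing notes, 7.0.0 in the matrix header) on GRCm38, without normalization; 16829 barcodes hold 32285 genes. From these counts, cells were gated as described, and UMIs were summed over cells and divided by all UMIs except those of Ifng (CPM). Ratios were computed for genes with 50 or more UMIs over both sets, the 14 gate genes left out. Cells were thinned to 2000 UMIs for shares. Intervals are exact Poisson, conditional binomial for ratios, or Clopper-Pearson, at 95%, and cover counting error only. Hashtags were called within T cells with HTODemux (Seurat 5.3.0, R 4.3.3, positive quantile 0.85), and doublets were marked with Scrublet (scanpy 1.11.5, rate 0.1), since the tool of the study was not used here; both kept in the main results. Analyses ran in Python 3.11.15, NumPy 2.4.6, SciPy 1.17.1 and pandas 2.3.3, figures in matplotlib 3.10.9, and the ratio step was tested on simulated data. Named genes were the 15 at each end of the ratios, seen in at least 5 cells of the higher set, the 8 at each end against each like set, the list genes past 2-fold and some well-counted members of each of 21 lists. The members and lists were chosen with earlier results of these data known. Alternatives were other quality filters, Ifng thresholds, doublet, hashtag and marker filters, thinning, totals, UMI minimums and averaging. The symbol Aldoa has more than 1 gene ID and was left out. Some genes of the lists are counted but not reported here by name.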

Additional observations from a re-analysis of the deposited data

Results flagged for a closer look

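In 33 values looked at over the 4 hashtags (the share of the gate with Ifng, and the CPM of the named genes in the Ifng-producing cells), 10 had 1 hashtag far from the others. The nominal rate of the rule, about 1 in 20, does not hold for genes chosen by extreme ratios and carried by few cells. For Ccl1, 1 cell held 112 of 223 UMIs. The 10 flags concern genes with few UMIs, and none was weighed. Ccl1 was 473.7 CPM in hashtag 9 and at most 56.6 in the others. Ccl9 was 59.7 CPM in hashtag 10 and at most 9.13 elsewhere. In hashtag 11, Ralyl was 87.7, Mctp1 76.7, Slc7a11 43.8, Plcl1 5.48 and Ube2e2 29.2 CPM, against at most 3.71, 3.71, 0, 0 and 6.17 CPM. Prickle1 was 0 CPM in hashtag 9 and 3.65 to 4.12 elsewhere. In hashtag 12, Gbp6 was 26.0 CPM and Irgm2 7.43 CPM, against at most 3.65 and 4.23 CPM in the others. The share of the gate with Ifng, Xcl1, Cd160, Ccl3, Ccl5, Gzmb and Igtp were not among those 10.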

How the results depend on the processing

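The share of the gate was 49.2% with 1 or more and 20.6% with 10 or more Ifng UMIs, and lay within its interval under each quality, doublet, hashtag and marker filter run, leaving out each hashtag in turn included. The 187 higher and 96 lower genes became 66 and 53 on cells thinned to 2000 UMIs and 44 and 23 at 1000 UMIs, where 2636 and 1394 genes reached 50 UMIs, 427 and 267 with a minimum of 20 UMIs, and 119 and 53 with 100. With 10 or more Ifng UMIs, 160 genes were lower. Without the richest cell of each gene the counts were 137 and 74. The 20 alternatives gave 1736 ratios of 88 named or list genes, of which 1724 kept their direction. The limit to cells with Cd44 (143 and 91 genes) was chosen after seeing the data. The minimums of 20 and 100 UMIs and the ribosomal filter could not change a ratio. The genes were also chosen by their ratios in these same cells, so the count is a description and no measure of robustness. The other 12 ratios belonged to 6 genes. S100a8 was 0.85 with single-hashtag cells. S100a8 and S100a9 were 0.77 and 0.99 without the richest cell, 0.93 and 0.92 at 10 or more Ifng UMIs and 0.92 and 0.99 without cells with Trdc, Tyrobp, Fcer1g or Zbtb16. Hdac9 was 1.20 without the richest cell and 1.16 with single-hashtag cells, Ebf1 0.79 without Scrublet doublets, Cxcl10 3.69 at 1 or more Ifng UMIs and Ctsw 0.72 when thinned to 1000 UMIs. The cause was not tested. No paired analysis was possible because the 4 hashtags are matched to no condition or animal in the sources used here, and levels of both sets within each hashtag are given as values instead. Leaving out 1 hashtag brought named genes inside 2-fold, Ctsw (1.97) without hashtag 9, Cxcr6 (1.76) without hashtag 10, Ier3 (1.70), Klrd1 (1.44), Klra7 (1.68), Nfkbiz (1.96), Cxcl10 (0.58) and Bach2 (0.52) without hashtag 11, and Ier3 (1.96) and Nfkbiz (1.90) without hashtag 12. The filter on ribosomal UMIs removed no cell. Depth limits genes under 50 UMIs, and the spread between animals is not known.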

Other observations

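Ifi202b, an interferon-inducible gene outside the rule for named genes and chosen after its values were seen, had 107 UMIs in 4 Ifng-producing cells and 1 UMI in the cells without Ifng. Csf2, the gene of GM-CSF, was counted in neither direction for want of UMIs in both sets together, and in the cells with Cd44 it had 22 UMIs with Ifng and 0 without.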
